A study of Mus musculus with 10 samples.

Results

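RNA-seq of primary differentiated adipocytes was used to describe 10 genes of insulin receptor signalling and insulin-regulated glucose uptake in control and Ad-Fam20c–KO cultures. The genes are Insr, Irs1, Irs2, Grb14, Pik3r1, Akt1, Akt2, Foxo1, Tbc1d4 and Slc2a4, and they were taken from the deposited count table by their symbols. All 10 were among its 56748 genes, each on 1 row, and all 10 were among the 14270 genes with enough counts to be tested. The control cultures carried the floxed Fam20c allele (genotype Fam20c-flox), and the KO cultures carried it together with Cre recombinase driven by the adiponectin promoter (Fam20c-flox/Adipoq-Cre), so the floxed allele is shared and Cre is present only in KO. Adiponectin is made by adipocytes once they differentiate, and cells of other types in the dish are not expected to express this Cre. The stromal vascular fraction of inguinal fat came from male mice 6 to 8 weeks old and was differentiated for 6 to 8 days. The cocktail began with isobutylmethylxanthine, dexamethasone, rosiglitazone and insulin. It went on with rosiglitazone and insulin and ended with insulin alone. RNA was sequenced from 5 libraries per group. The sources do not say that each library came from its own animal, so p-values measure the spread between these libraries. Fam20c encodes a kinase of the secretory pathway. The question put to the data was whether its adipocyte knockout went along with a different mRNA level of the genes that receive and pass on the insulin signal.

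Insulin binds the insulin receptor (Insr), a tyrosine kinase that phosphorylates the docking proteins IRS1 and IRS2. These recruit phosphoinositide 3-kinase through its regulatory subunit p85α (Pik3r1), which leads to activation of the AKT kinases. In adipocytes AKT phosphorylates the Rab GTPase-activating protein AS160 (Tbc1d4), which releases vesicles carrying the glucose transporter GLUT4 (Slc2a4) to the cell surface, and it keeps the transcription factor FOXO1 out of the nucleus. GRB14 is an adaptor that binds the active receptor and inhibits it. Counts of mRNA do not measure phosphorylation, protein level or glucose uptake.

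Libraries held 18949106 to 26237825 counts in control and 19883101 to 23291792 in KO. Fam20c was lower in KO, at 7.30 ± 0.449 against 10.2 ± 1.29 CPM (a count relative to its library's total, with edgeR's TMM scaling; SD, n = 5; adjusted p = 0.0137, edgeR), and its 5 KO libraries lay below the 5 control libraries. The KO to control ratio of Fam20c was 0.71-fold, with a 95% interval of 0.62-fold to 0.82-fold, so much of its count remained in KO. Counts per gene do not show which of its exons remained. All 14 adipocyte markers on the list used here were tested, and their summed level was 47910 to 49742 CPM in control and 50133 to 52320 CPM in KO libraries, with 0 of the 14 genes called different. These ranges did not overlap, and Fabp4 alone had means of 20805 and 22552 CPM in control and KO. Of the 14 log2 fold changes 11 were positive, beside 49.7% of all tested genes. At an unadjusted p under 0.05 (edgeR) there were 4 of the 14, beside 11.9% of all tested genes. Of 8 skeletal muscle markers, whose tissue also uses GLUT4, 4 passed the filter on low counts and the sum was 7.42 to 16.3 CPM over the 10 libraries. The 12 endothelial markers summed to 163 to 206 CPM in control and 69.4 to 106 CPM in KO libraries, with 9 of them lower in KO. Control library 4 and KO library 1 stood apart from the others on the leading principal component, which held 23.5% of the variance. Control library 4 had 21.7 on it and KO library 1 had 24.2. The lowest KO library had -4.12, and the other control libraries lay between -14.8 and -11.5, below all KO libraries. In a culture, fewer cells of a type and less RNA per cell cannot be told apart.

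Of the 10 genes, 0 were called different between control and KO cultures at an adjusted p-value limit of 0.05 (edgeR, quasi-likelihood, Benjamini-Hochberg over all genes tested), where 2.17% of the 14270 tested genes were called. DESeq2 also called 0 of the 10, where it called 3.39% of the tested genes. At an unadjusted p-value under 0.05 there was 1 member, Slc2a4, against 11.9% of all tested genes (4.43% with higher and 7.46% with lower values in KO). Which members lay under this value depended on the fit. With the replicate number as a block (edgeR), Irs1 had an unadjusted p of 0.00775 and Slc2a4 one of 0.0869. With DESeq2, Slc2a4 had 0.0293 and Akt2 had 0.0423. The KO libraries overlapped the control libraries for all 10 members, where 3.97% of tested genes had groups without overlap (1.31% with KO above and 2.66% with KO below). The log2 fold changes ran from -0.16 for Irs1 to 0.21 for Grb14, with 6 positive and 4 negative and a median of 0.05. Over all tested genes 49.7% were positive and the median was -0.00085. For Akt2 the 95% interval of the KO to control ratio was 1.00-fold to 1.11-fold, and the widest, that of Grb14, was 0.92-fold to 1.46-fold.

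**Figure D1:**
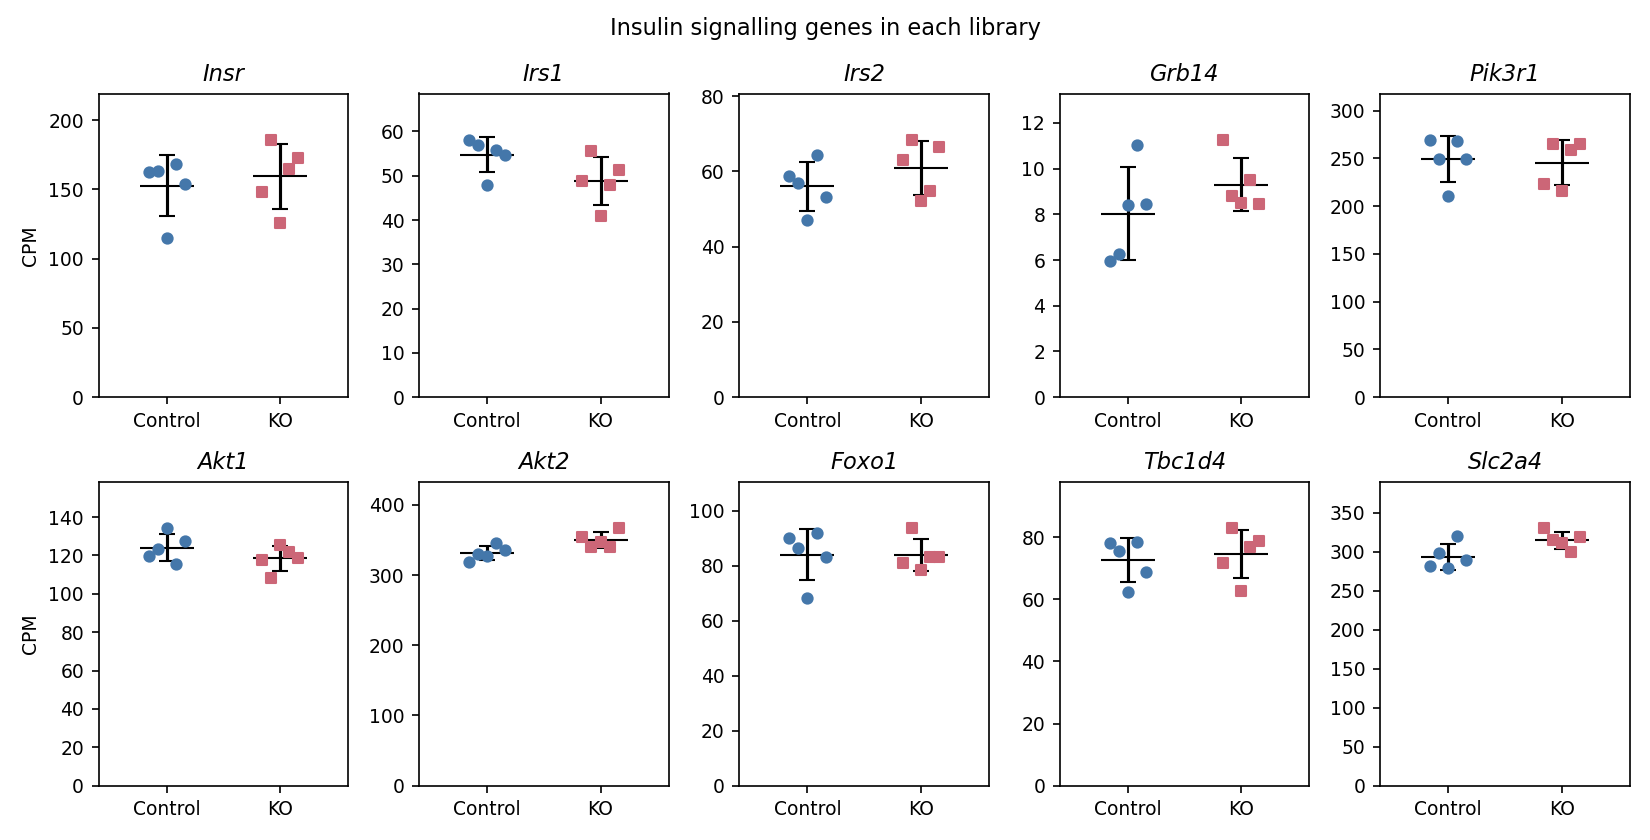
CPM of the 10 genes in each of 5 control (blue circles) and 5 KO (red squares) libraries, with the mean as a bar and the SD as whiskers and each vertical axis starting at 0. The points of both groups share a range in every panel, and Slc2a4 and Akt2 have the tightest groups relative to their level.

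Levels differed far more between the genes than between the groups. Per kilobase of exon, the GLUT4 gene Slc2a4 had the highest level of the 10, at 84.4 ± 4.77 CPM per kilobase in control and 90.5 ± 3.23 in KO libraries (SD, n = 5). Akt2 followed with a mean of 47.8 over the 10 libraries, then Akt1 with 29.6 and Pik3r1 with 24.6 CPM per kilobase. Each of these 4 genes lay above the next in 10 of 10 libraries. Insr had a mean of 11.4 CPM per kilobase, and Foxo1, Tbc1d4 and Irs2 had 9.68, 9.60 and 9.26. These last 3 genes could not be put in order, since Foxo1 lay above Tbc1d4 in 5 of 10 libraries and Tbc1d4 above Irs2 in 6 of 10. Irs1, at 5.66 CPM per kilobase, lay below Irs2 in 10 of 10 libraries, and Grb14 was lowest at 1.21. Irs1 shares 2822 of its 9144 exon bases with a gene on the opposite strand, where fragments may not have been counted. With shared bases left out of the length, a choice made after seeing the data, Irs1 had 8.19 and Irs2 9.50 CPM per kilobase and Irs1 lay below Irs2 in 9 of 10 libraries, so their order rests on the length used. The length used is the union of annotated exons, so a gene whose cells use a short isoform is given too low a level.

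**Figure D2:**
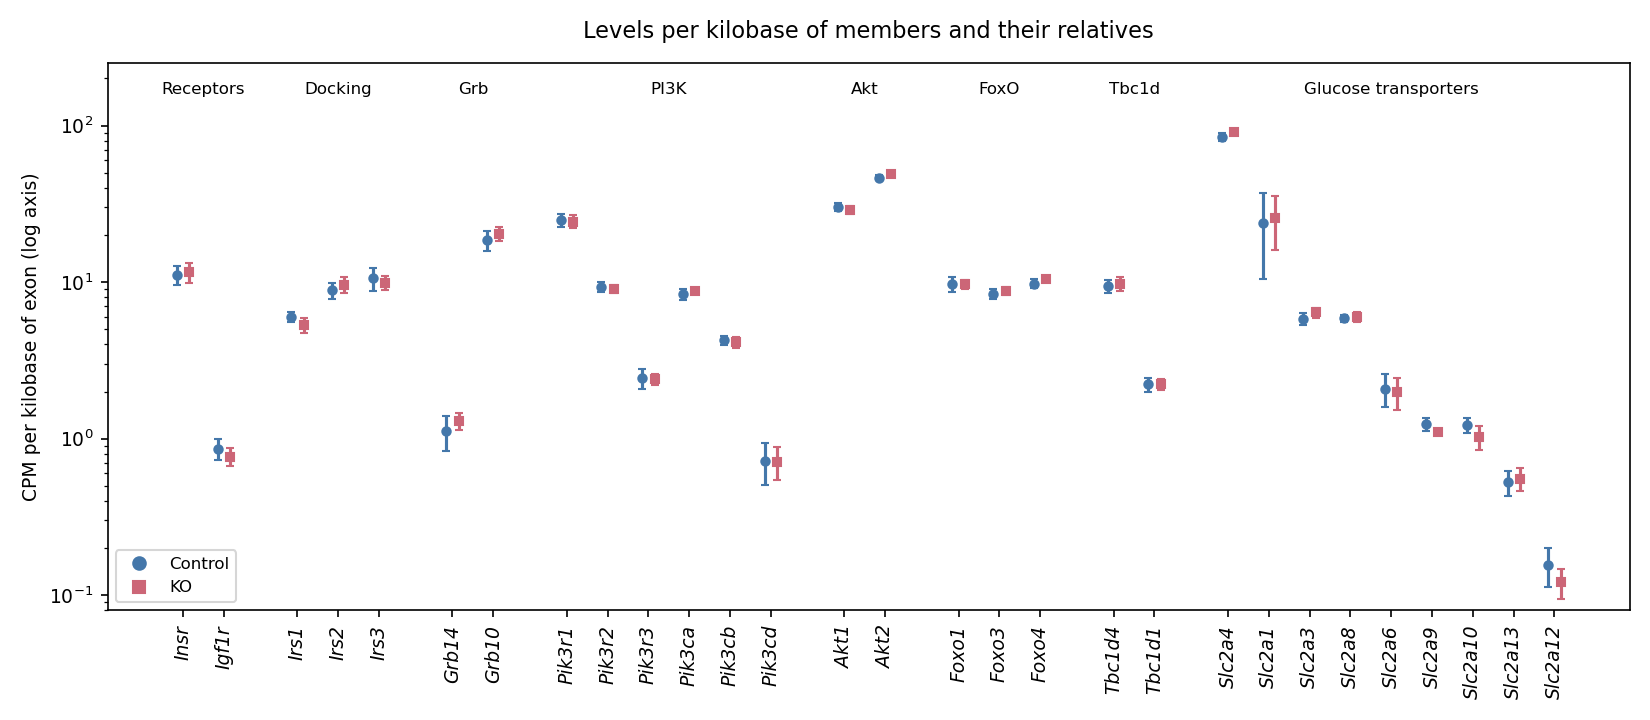
Mean level per kilobase of exon with SD (n = 5) of the 10 genes and some of their relatives in control (blue circles) and KO (red squares) libraries, on a log axis, grouped by role. Slc2a4 tops the glucose transporters shown and Akt2 lies above Akt1, while Insr (11.1 in control, 11.6 in KO) lies far above Igf1r (0.860 and 0.767).

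The insulin receptor gene Insr (ENSMUSG00000005534.11; chromosome 8, 3122061 to 3279617, minus strand, GRCm38) had 163, 163, 115, 169 and 154 CPM across control libraries 1 to 5. In KO libraries 1 to 5 it had 148, 186, 126, 165 and 173 CPM. Library 3 was the lowest of each group, and the groups spanned nearly the same range. For this gene the log2 fold change was 0.06 (SE, standard error, 0.114; adjusted p = 0.914, edgeR), with a 95% interval of -0.18 to 0.31. Without control library 3 it was -0.02. Igf1r, the receptor of the related growth factor IGF1, was far lower than Insr. Per kilobase the Insr to Igf1r ratio was 11.1 to 16.4 across control and 12.6 to 17.2 across KO libraries, a log2 difference of 0.22 (2-sided exact permutation test, p = 0.119, adjusted p = 0.317 over 8 gene pairs). Insrr, the orphan receptor of the family, had at most 0.092 CPM in any library.

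Grb14 (chromosome 2, 64912476 to 65024987, minus strand), the receptor's inhibitory adaptor, had 5.98, 6.26, 8.42, 11.02 and 8.45 CPM across control libraries 1 to 5. The KO libraries held 11.3, 8.78, 8.51, 9.48 and 8.45 CPM. Control libraries 1, 2 and 3 lay below all KO libraries, and control library 4 was close to the highest KO library. Grb14 had the largest relative spread of the 10 genes in the control group, with an SD of 25.4% of the mean, on counts of 114 to 228 per library. The log2 fold change of 0.21 (SE 0.154) did not pass (adjusted p = 0.676, edgeR). Single libraries moved it, to 0.13 without control library 1 or 2, 0.14 without KO library 1 and 0.35 without control library 4 (unadjusted p = 0.0174, adjusted p = 0.192, edgeR). The related adaptor Grb10 was far more abundant, at 19.5 against 1.21 CPM per kilobase over the 10 libraries, and the ratio of Grb14 to Grb10 was 0.060 in control and 0.064 in KO cultures (2-sided exact permutation test, p = 0.437, adjusted p = 0.582 over 8 gene pairs).

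Irs1 and Irs2, the docking proteins through which the receptor reaches phosphoinositide 3-kinase, had differences of opposite sign. Irs1 (chromosome 1, 82233101 to 82291416, minus strand) had 58.1, 56.8, 48.0, 55.8 and 54.8 CPM across control libraries 1 to 5, while KO libraries 1 to 5 had 48.8, 55.5, 40.8, 47.9 and 51.3 CPM. Of the 5 KO libraries, 4 lay below control libraries 1, 2, 4 and 5. For this gene the log2 fold change was -0.16 (SE 0.0763, adjusted p = 0.430, edgeR), with a 95% interval of -0.33 to 0.00. Irs2 (chromosome 8, 10984681 to 11008458, minus strand) had 58.8, 56.9, 47.0, 64.3 and 53.3 CPM across control libraries 1 to 5, while KO libraries 1 to 5 had 63.1, 68.4, 52.2, 54.7 and 66.6 CPM. Its 3 highest values included 2 KO libraries, and its groups overlapped over most of their range. The log2 fold change was 0.12 (SE 0.0915, adjusted p = 0.694, edgeR), and it ran from 0.07 without control library 3 to 0.18 without control library 4.

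The ratio of the docking genes was also compared within each library. Per kilobase the Irs1 to Irs2 ratio was 0.683, 0.691, 0.706, 0.599 and 0.711 in control libraries 1 to 5. It was 0.535, 0.561, 0.540, 0.605 and 0.532 in KO libraries 1 to 5. Only control library 4 fell into the range of the KO libraries. The mean log2 ratio was -0.56 ± 0.10 in control and -0.85 ± 0.077 in KO (SD, n = 5), a difference of -0.29 with an unadjusted p of 0.0159 in a 2-sided exact permutation test. Adjusted over the 8 gene pairs tested this way, p was 0.127, so the difference did not pass. Without control library 4 and KO library 1, a choice made after seeing the data, the ranges were 0.683 to 0.711 and 0.532 to 0.605. Leaving out the only overlapping control library fixes this separation, so it is given with no test. Without shared exon bases the ratio was 0.845 to 1.00 in control and 0.750 to 0.853 in KO libraries, and the log2 difference between groups does not depend on the length. Irs3, a docking gene that mice express in fat, had 17.6 to 28.1 CPM over the 10 libraries, and Irs4 had at most 0.046 CPM. The exon union of Irs3 is short, at 2338 bases. Per kilobase of full exon length Irs3 had a mean of 10.2 CPM, against 9.26 for Irs2 and 5.66 for Irs1.

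**Figure D3:**
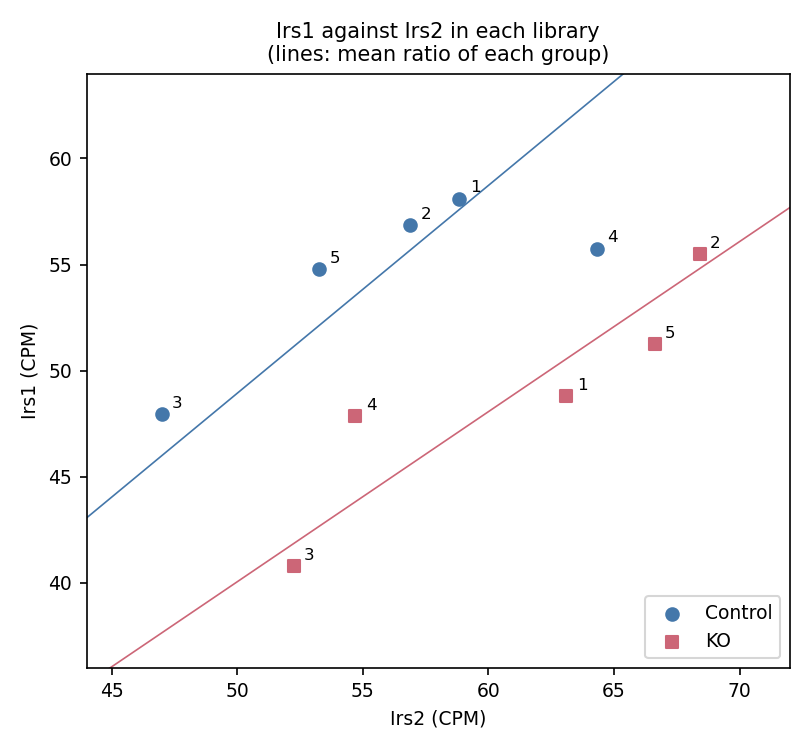
CPM of Irs1 (vertical) against Irs2 (horizontal) in each library, numbered by replicate, with control as blue circles and KO as red squares and a line for the mean ratio of each group; the axes do not start at 0. The KO libraries have lower ratios than control libraries 1, 2, 3 and 5, and control library 4 and KO library 4 lie between the lines.

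The stretches just upstream of both docking genes are shown because this pair had the lowest p of the 8 ratios and because its starts share short motifs. They are the 250 bases before the RefSeq start on GRCm38.p6, both on the minus strand, at chr1:82291440-82291689 for Irs1 and chr8:11008930-11009179 for Irs2. Capitals mark the E-box CACGTG, which basic helix-loop-helix factors bind, and TGTTTTG, the core letters of the insulin response element that FOXO factors recognise.
Irs1: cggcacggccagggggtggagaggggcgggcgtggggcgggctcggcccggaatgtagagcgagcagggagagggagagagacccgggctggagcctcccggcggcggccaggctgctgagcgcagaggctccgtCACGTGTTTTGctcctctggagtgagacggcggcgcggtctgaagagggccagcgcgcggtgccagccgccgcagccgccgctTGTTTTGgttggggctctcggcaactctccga
Irs2: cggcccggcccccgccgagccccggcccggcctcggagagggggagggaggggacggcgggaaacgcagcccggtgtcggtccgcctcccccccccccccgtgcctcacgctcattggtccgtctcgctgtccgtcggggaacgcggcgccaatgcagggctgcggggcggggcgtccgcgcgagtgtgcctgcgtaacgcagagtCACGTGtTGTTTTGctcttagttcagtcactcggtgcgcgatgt
Both windows hold an E-box next to the response element letters. In Irs1 the motifs overlap by 2 bases, and in Irs2 they are 1 base apart. The longest stretches common to both windows have 10 bases, the E-box with its flanks being GTCACGTGTT in each and the response element with its flank TGTTTTGCTC. Both motifs and a FOXO core, GTAAACA, were searched on both strands in the 250 bases before each start. Of all 32851 promoter windows of that length, 6.02% held the E-box, 5.56% held the response element letters, 3.17% held the FOXO core, and 0.295% held the E-box together with the response element letters. Windows were matched for 8 of the 10 members, all but Insr and Slc2a4. Among these, Irs1 and Irs2 held the E-box and the response element letters, and Akt1 held the FOXO core in 1 of its 2 windows. The window of Pdk4, a FOXO target list gene described below, was searched too and held none of these motifs. A match is a description of letters and not a binding site.

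Pik3r1 (chromosome 13, 101680563 to 101768217, minus strand), which encodes the regulatory subunits p85α, p55α and p50α, had 269.5, 249.5, 211, 268 and 249 CPM across control libraries 1 to 5. The KO libraries had 224, 265, 216, 259 and 265 CPM. The lowest library of each group was again number 3, and the means were 249.5 ± 23.7 and 246 ± 23.95 CPM (SD, n = 5). For this gene the log2 fold change of -0.02 had a 95% interval of -0.19 to 0.15 (adjusted p = 0.962, edgeR). Per kilobase, Pik3r1 was 2.96 times as abundant as its catalytic partner Pik3ca in control and 2.76 times in KO cultures (2-sided exact permutation test, p = 0.159, adjusted p = 0.317 over 8 gene pairs). The other regulatory genes, Pik3r2 and Pik3r3, had 9.19 and 2.41 CPM per kilobase over the 10 libraries against 24.6 for Pik3r1.

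Akt2, the isoform tied to insulin-stimulated glucose uptake, was above Akt1 per kilobase in 10 of 10 libraries. Akt2 (chromosome 7, 27591552 to 27640826, plus strand) had 318, 331, 327, 346 and 336 CPM across control libraries 1 to 5, while KO libraries 1 to 5 had 354, 339.5, 347, 339.6 and 367 CPM. Control library 4 was the only control library inside the KO range, and the SD was 3.10% and 3.26% of the mean in the 2 groups, the smallest of the 10 genes. The log2 fold change was 0.07 (SE 0.0374, adjusted p = 0.473, edgeR). Akt1 (chromosome 12, 112653821 to 112674884, minus strand) had 119.7, 124, 134, 116 and 127 CPM across control libraries 1 to 5, while KO libraries 1 to 5 had 118, 108, 125, 122 and 119 CPM. Here the highest value was that of control library 3 and the lowest that of KO library 2. Its log2 fold change was -0.07 (SE 0.0507, adjusted p = 0.695, edgeR).

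The Akt2 to Akt1 ratio per kilobase was 1.53, 1.54, 1.40, 1.72 and 1.52 in control libraries 1 to 5 and 1.73, 1.80, 1.59, 1.5997 and 1.77 in KO libraries 1 to 5. Again control library 4 was the only control library within the KO range. The log2 difference of 0.14 had an unadjusted p of 0.0476 in a 2-sided exact permutation test and 0.190 after adjustment over the 8 gene pairs.

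Tbc1d4 (chromosome 14, 101442360 to 101609191, minus strand) encodes AS160, the AKT substrate that restrains GLUT4 vesicles. It had 78.2, 75.5, 62.3, 78.5 and 68.9 CPM across control libraries 1 to 5, while KO libraries 1 to 5 had 71.8, 82.9, 62.7, 77.0 and 78.7 CPM. Library 3 was the lowest in both groups and the ranges nearly coincided. For this gene the log2 fold change was 0.04, with a 95% interval of -0.14 to 0.21 (adjusted p = 0.927, edgeR). The paralog Tbc1d1, which prevails in skeletal muscle, was lower, with a Tbc1d4 to Tbc1d1 ratio of 4.25 in control and 4.34 in KO cultures (2-sided exact permutation test, p = 0.802, adjusted p = 0.802 over 8 gene pairs).

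The transporter gene Slc2a4 (ENSMUSG00000018566.15; chromosome 11, 69942539 to 69948188, minus strand), which encodes GLUT4, had 281, 299, 279, 319.9 and 289 CPM across control libraries 1 to 5. The KO libraries had 330.2, 315, 311, 299 and 319 CPM. Each KO library lay above 4 of the 5 control libraries, while control library 4 lay above 4 of the 5 KO libraries. The means were 294 ± 16.6 and 315 ± 11.2 CPM (SD, n = 5), a difference of 7.19%. The log2 fold change of 0.10 (SE 0.0450) had an unadjusted p of 0.0448 and did not pass over all genes tested (adjusted p = 0.404, edgeR). Read relative to the mean of the adipocyte markers, which was itself higher in KO, the log2 fold change of Slc2a4 was 0.04. Over the 10 libraries Slc2a4 also went with the leading principal component (r = 0.88). On this component control library 4 and KO library 1 stood apart, and the other control libraries lay below all KO libraries. The part of the adipocyte markers or of this component in the difference was not tested. Control library 4 was the only control library within the KO range of Slc2a4, so leaving it out fixes the separation of the groups. The log2 fold change was then 0.14, given with no test. This was the highest value over the 10 fits that dropped 1 library, and the lowest was 0.085.

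Among the other glucose transporters, Slc2a1 (GLUT1), the widely expressed basal transporter, was the most abundant. It had 56.6, 59.4, 61.1, 166 and 73.3 CPM across control libraries 1 to 5, while KO libraries 1 to 5 had 148, 86.2, 72.01, 62.7 and 81.5 CPM. Control library 4 and KO library 1, the libraries that stood apart on the leading principal component, had the highest Slc2a1 levels, the next being 86.2 CPM in KO library 2. The Slc2a4 to Slc2a1 ratio per kilobase was 1.95 in control library 4 and 2.25 in KO library 1, against 3.98 to 5.08 and 3.68 to 4.81 in the others. The difference of the ratio between groups did not pass with these libraries (log2 difference -0.08; 2-sided exact permutation test, p = 0.706, adjusted p = 0.802 over 8 gene pairs) or without them (log2 difference -0.15; exact permutation p = 0.229, adjusted p = 0.457). Of 12 other sugar transporters on the list, 8 were tested and 0 were called. Slc2a3 had 42.3 ± 3.61 and 46.3 ± 3.41 CPM, Slc2a10 had 4.37 ± 0.479 and 3.65 ± 0.616 CPM and Slc2a9 had 6.29 ± 0.594 and 5.65 ± 0.249 CPM in control and KO cultures (SD, n = 5). The GLUT2 and GLUT5 genes Slc2a2 and Slc2a5 and the sodium-coupled carriers Slc5a1 and Slc5a2 had at most 0.220 CPM in any library.

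Foxo1 (chromosome 3, 52268336 to 52353221, plus strand), the transcription factor that AKT keeps out of the nucleus, had 90.2, 86.4, 68.3, 91.8 and 83.3 CPM across control libraries 1 to 5. The KO libraries had 80.8, 93.6, 78.5, 83.0 and 83.3 CPM. Control library 3 was the lowest, and the KO libraries lay within the control range except for KO library 2. For this gene the log2 fold change was -0.0027, with a 95% interval of -0.17 to 0.16 (adjusted p = 0.998, edgeR). The Foxo1 to Foxo3 ratio per kilobase was 1.14 in control and 1.10 in KO cultures (2-sided exact permutation test, p = 0.254, adjusted p = 0.406 over 8 gene pairs). Foxo4 had 34.1 ± 2.35 and 36.5 ± 0.785 CPM (SD, n = 5). Per kilobase Foxo4 had a mean of 10.1 CPM over the 10 libraries, against 9.68 for Foxo1 and 8.63 for Foxo3.

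Target genes of FOXO factors were taken from a list of 20, of which 18 were tested, and 1 was higher and 1 lower in KO. For comparison, 0.308% of all tested genes were called higher and 1.86% lower. Pdk4 (chromosome 6, 5483351 to 5496309, minus strand), the kinase that shuts pyruvate dehydrogenase in the fasted state, rose in KO. It had 376, 401, 341, 407 and 357 CPM across control libraries 1 to 5, while KO libraries 1 to 5 had 450.2, 484, 448, 451 and 454 CPM. All KO libraries lay above all control libraries. The log2 fold change was 0.28 (SE 0.0516, adjusted p = 0.0117, edgeR), with a 95% interval of 0.17 to 0.39. Relative to the adipocyte markers it was 0.22 (adjusted p = 0.0443).

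Ccn2 (chromosome 10, 24595442 to 24598683, plus strand), a matricellular protein also known as CTGF, fell in KO. It had 16.7, 14.6, 23.7, 24.6 and 21.6 CPM across control libraries 1 to 5, while KO libraries 1 to 5 had 14.9, 12.2, 11.4, 10.9 and 12.2 CPM. The groups overlapped through KO library 1 and control library 2. For this gene the log2 fold change was -0.72 (SE 0.141, adjusted p = 0.0177, edgeR), and leaving out control library 3 or 5 or KO library 2, 4 or 5 ended the call, with an adjusted p-value of 0.0518 to 0.0567, as did the replicate number as a block (adjusted p = 0.0656). The endothelial markers, 9 of 12 lower in KO, moved in the same direction, and 2 of 10 progenitor markers were lower, with a summed level of 1536 to 1860 CPM in control and 1519 to 1699 CPM in KO. The part of these cells in the Ccn2 difference was not tested. Txnip, an inhibitor of glucose uptake, had 909 ± 89.1 (control) and 1074 ± 97.2 (KO) CPM (SD, n = 5). This gave a log2 fold change of 0.24 that did not pass (adjusted p = 0.163, edgeR). Sesn3 had 46.1 ± 4.13 and 40.1 ± 4.73 CPM (SD, n = 5).

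**Figure D4:**
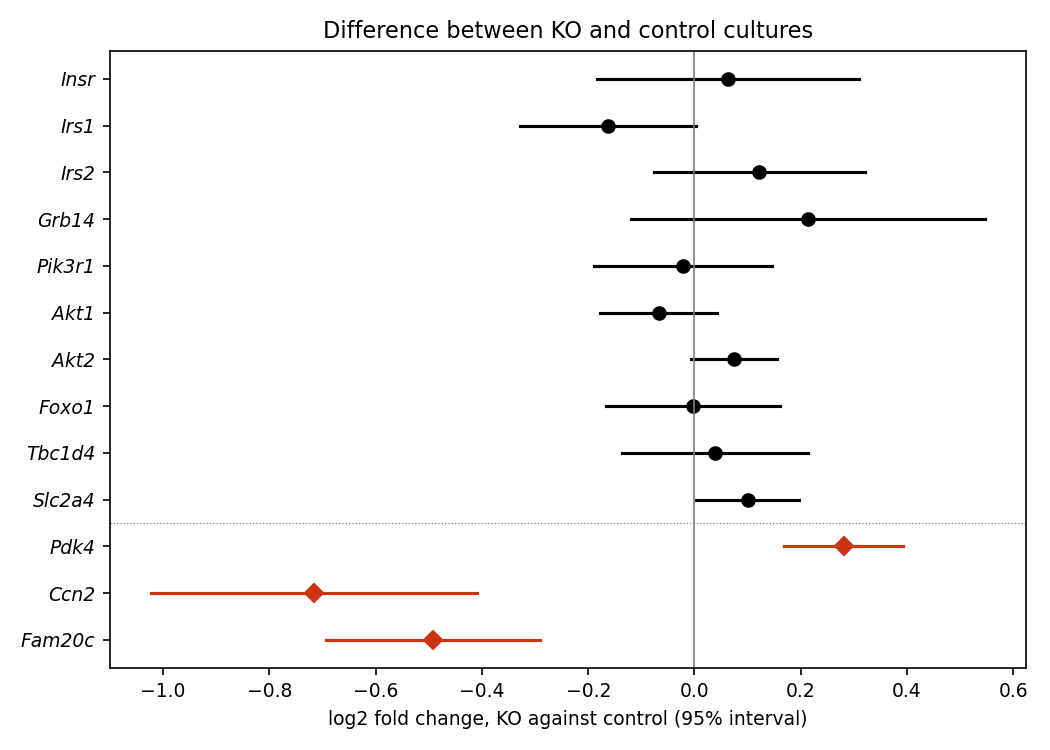
Log2 fold change of KO against control with its 95% interval for the 10 genes (circles). Below the dotted line (diamonds) are the called FOXO target list genes Pdk4 and Ccn2 and the targeted gene Fam20c. Red marks an adjusted p-value under 0.05. The intervals of 9 of the 10 genes include 0, and that of Slc2a4 starts just above it.

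The rest of the pathway was read from 6 other lists of pathway genes, and none of them held a called gene. Over all 7 lists, 145 genes were listed and 133 tested, 1 was higher and 1 lower, and the median log2 fold change was 0.0127. At an unadjusted p under 0.05 (edgeR) there were 11 of the 133, against 11.9% of all tested genes. The receptor and docking list had 14 tested genes, of which 3 had positive and 11 negative log2 fold changes, beside 49.7% positive over all tested genes. In it the adaptor Sh2b2 had 84.7 ± 3.05 and 89.98 ± 5.64 CPM in control and KO cultures (SD, n = 5), while Crk had 171 ± 3.92 and 176 ± 4.69 CPM. The phosphoinositide 3-kinase and AKT list had 22 tested genes with a median log2 fold change of 0.01. Its lowest p-values belonged to Tsc2 and Rheb, the 2 genes of this list with an unadjusted p under 0.05 (edgeR). Tsc2, which holds the GTPase RHEB in check and is inhibited by AKT, had 70.4 ± 3.40 and 64.4 ± 3.19 CPM (SD, n = 5), and its KO libraries lay below its control libraries. Rheb had 102 ± 1.09 and 109 ± 3.09 CPM (SD, n = 5), and its KO libraries lay above its control libraries. Groups without overlap were seen for 3.97% of all tested genes, and these 2 genes were named for their p-values. Neither passed, since the log2 fold change was -0.13 for Tsc2 (adjusted p = 0.264, edgeR) and 0.09 for Rheb (adjusted p = 0.319, edgeR). Pde3b, the phosphodiesterase through which insulin restrains lipolysis, had 659 ± 65.5 and 725 ± 34.4 CPM (SD, n = 5).

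Genes that brake the pathway were tested for 25 of 26 listed, with 13 positive and 12 negative log2 fold changes and a median of 0.00. The tyrosine phosphatase gene Ptpre had the lowest p-value, with 3.25 ± 0.352 (control) and 2.08 ± 0.613 (KO) CPM (SD, n = 5). This gave a log2 fold change of -0.64 that did not pass (adjusted p = 0.1002, edgeR). Inpp5k, a lipid phosphatase, had 35.6 ± 1.46 and 39.1 ± 1.49 CPM, and Ptpn2, a tyrosine phosphatase that acts on the receptor, had 23.9 ± 2.37 and 27.4 ± 1.33 CPM (SD, n = 5). For these 2 genes edgeR gave adjusted p-values of 0.211 and 0.220. The GLUT4 traffic list had 36 tested genes, with 24 positive and 12 negative log2 fold changes between -0.11 and 0.17. Of all tested genes, 49.7% had positive ones, and genes of a list may vary together, so these sign counts carry no test. Rab10, the AS160-regulated Rab of adipocyte GLUT4 vesicles, had 216 ± 6.88 and 228 ± 12.5 CPM, and Rab5a had 84.9 ± 2.87 and 90.9 ± 6.26 CPM (SD, n = 5). Rgp1, which has the lowest p-value of the list, had 62.6 ± 2.19 and 57.9 ± 3.21 CPM. The 10 tested genes of the FOXO list had log2 fold changes of -0.02 to 0.10, with Mdm2 at 71.2 ± 4.599 and 75.1 ± 5.44 CPM and Sirt1 at 18.6 ± 1.52 and 19.6 ± 0.953 CPM (SD, n = 5).

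Among the members, 6 varied together from library to library. Insr, Irs1, Irs2, Pik3r1, Foxo1 and Tbc1d4, a set grouped after their values were seen, were low together in control library 3 and KO library 3, where their mean log2 CPM was 0.27 and 0.22 below its average over the libraries, and high together in KO library 2. Pearson's r of log2 CPM over the 10 libraries was 0.45 to 0.96 for the 15 pairs of these 6 genes, with a median of 0.82. Akt1 ran the other way, with r of -0.93 to -0.39 against them, and Slc2a4 went with Akt2 (r = 0.84). Without control library 3 and KO library 3 the 15 values ran from 0.025 to 0.90, with a median of 0.65. These r are descriptions over 10 libraries in 2 groups, and the libraries share normalization and depth.

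The pattern of the 6 genes was set beside the trend of each library on transcript length. The 6 genes have 6323 to 13746 exon bases, above the median of 4255 over the tested genes with a length, and Akt1 has 4098. Outside the 6, Akt2 with 7131 and Grb14 with 7185 bases are longer than Irs2, and Slc2a4 has 3478. For these other members r with the length slope described next was -0.011 for Akt2, 0.23 for Grb14, 0.32 for Slc2a4 and -0.76 for Akt1. Across the tested genes with a length, log2 CPM fell with exon length in control library 3 and KO library 3, by 0.038 and 0.041 per doubling of length relative to the mean of all libraries, while control library 4 had the steepest rise, at 0.040. The mean of the 6 genes had an r of 0.85 with this slope over the 10 libraries and 0.49 without control library 3 and KO library 3. With each library's length trend removed, the 15 pairs had r of 0.21 to 0.92, with a median of 0.69. The mean slope was 0.00221 in control and -0.00221 in KO libraries. The part of transcript length in the shared pattern was not tested.

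**Figure D5:**
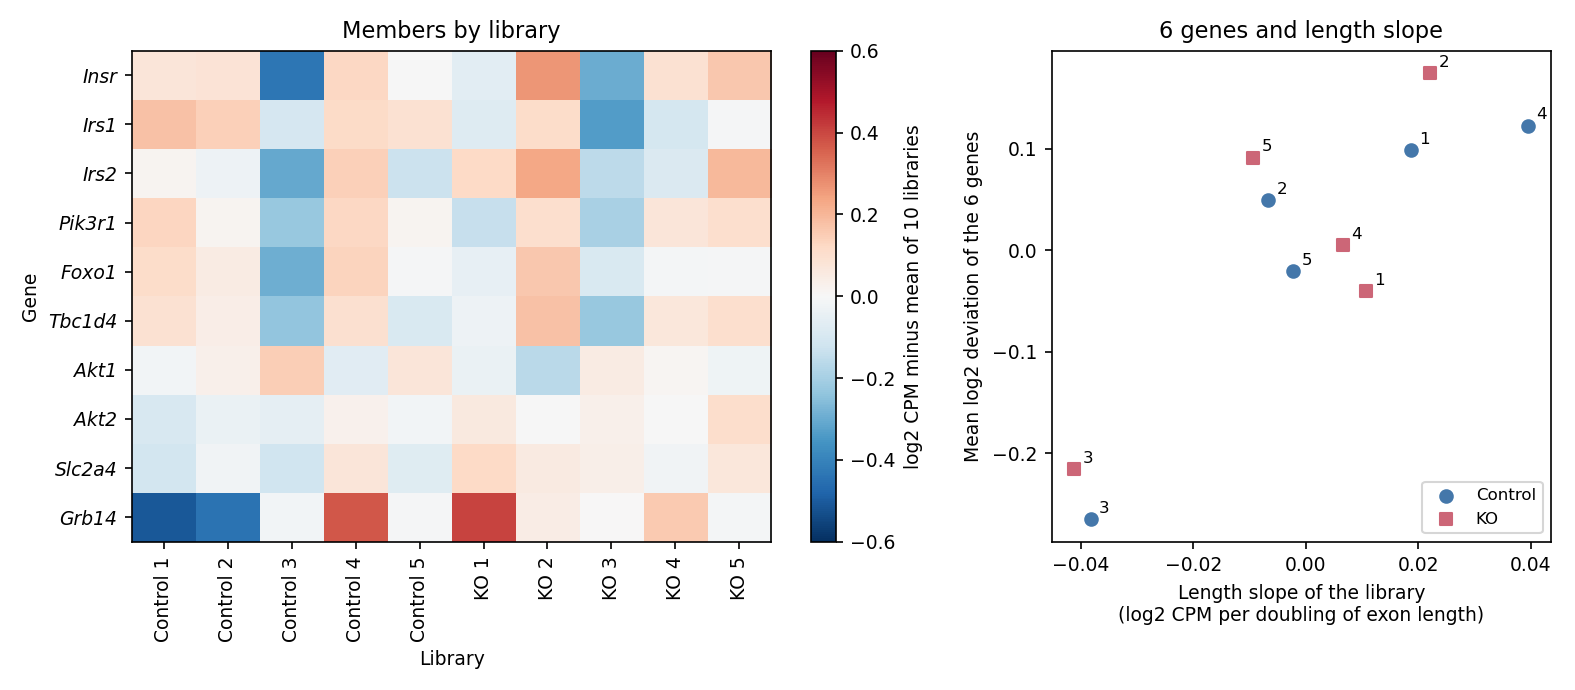
Left, log2 CPM of each member in each library minus its mean over the 10 libraries (red above, blue below); right, the mean of that value for Insr, Irs1, Irs2, Pik3r1, Foxo1 and Tbc1d4 against the slope of log2 CPM on exon length in each library, numbered by replicate. Control library 3 and KO library 3 lie at the lower left, apart from the other 8 libraries.

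The tested genes most like Insr over the 10 libraries were Pbrm1, a chromatin remodeller subunit (r = 0.98), Synrg, a protein of clathrin adaptor complexes (r = 0.98), and Kif1b, a kinesin motor (r = 0.98). Their exon unions measure 8846, 8744 and 17608 bases. Those most like Slc2a4 were the metallothionein Mt1 (r = 0.97), the mitochondrial carrier Slc25a34 (r = 0.97) and the acyl-CoA dehydrogenase Acad12 (r = 0.95). Mt1 had 1086 ± 131 (control) and 1318 ± 101.1 (KO) CPM (SD, n = 5), and Slc25a34 had 79.1 ± 11.3 and 95.3 ± 6.80 CPM. Neither was called, and edgeR gave adjusted p-values of 0.111 and 0.182.

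Parts of the annotated exons of Irs1, Irs2 and Foxo1 lie under a gene on the opposite strand, with 2822, 162 and 674 shared bases. The library kit named in the methods does not mark strand, so fragments from either strand cannot be told apart there. The opposite genes themselves, Gm9747, 9530052E02Rik and Gm20402, had at most 4 counts in any library, which does not show that fragments in the shared bases were counted for the members.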

How the data were processed

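Per the labels, inguinal stromal vascular cultures gave 5 control and 5 KO libraries. The authors used SMARTer v4 and Nextera XT chemistry, STAR on GRCm38.p6 and featureCounts with an Ensembl annotation, and deposited raw counts per gene with no pooling of replicates. Strand setting and batch are not given in the sources used here.

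Low genes were removed with filterByExpr (minimum count 10), libraries were scaled by TMM, and KO was compared with control by the quasi-likelihood test of edgeR 4.0.16 (R 4.3.3), with Benjamini-Hochberg adjusted p-values and a limit of 0.05. The SE was taken as the log2 fold change over the square root of F. Log2 CPM, used for ratios and correlations, had a prior count of 2. Ratios were compared by 2-sided exact permutation over 252 assignments (smallest p 0.00794), and the ratios given for single libraries are without the prior count. Positions and exon lengths are those of GENCODE M21, promoters those of RefSeq (GRCm38.p6). Tested on simulated data for this comparison (14134 genes), the fit recovered 89.9% of 99 genes with a log2 change of 1 and 67.3% of 98 with 0.5. The simulated counts were drawn independently for each gene, without patterns shared across a library. Both changes are larger than that of any member, so these shares do not apply to changes of the members' size.

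The members and lists were chosen with earlier results of these data known. The genes named are the members, Fam20c, partners in the 8 ratios, list genes past the limit, up to 3 per list with the lowest p, and the 3 genes most correlated with Slc2a4 and with Insr. Further family members (Irs3, Irs4, Insrr, Pik3r2, Pik3r3, Slc2a2, Slc2a5, Slc5a1, Slc5a2), Sesn3 and Bnip3 were chosen after their values were seen. For 1 list gene no result is given here, though its list's counts include it. Alternatives were DESeq2 1.42.0, limma 3.58.1 (voom with sample quality weights), other size factors and filters, a replicate block, a scale set by the adipocyte markers and each library left out. Removing a length trend, leaving out control library 4 with KO library 1 and leaving shared exon bases out of the length were added after the data were seen. The same holds for leaving control library 3 and KO library 3 out of the correlations.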

Additional observations from a re-analysis of the deposited data

Results flagged for a closer look

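Within each group of 5, the gap from an extreme library to its neighbour was divided by the group's range, and a ratio above 0.71 is reached by chance in 5% of groups. Of 38 groups of member levels, Fam20c levels and ratios, 2 lay above it, where chance gives 1.9. For Insr, control library 3 held 115 CPM and the other control libraries 154 to 169 CPM (gap ratio 0.732). The Irs1 to Irs2 ratio of control library 4 was 0.599, while the other control libraries had 0.683 to 0.711 (gap ratio 0.746).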

How the results depend on the processing

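None of the 10 members was called under any alternative, and Pdk4 was called under all of them. Genes called higher in KO over the whole table, 44, became 125 with DESeq2, 111 with voom and 145 without control library 4 and KO library 1. Pathway list genes called higher, 1, became 3 with voom and 4 without those 2 libraries. Those called lower, 1, became 2 under DESeq2, under voom and without those libraries. Ptpre, Ptpn2 and Txnip were gained with voom, among other settings. Bnip3 was gained only in fits without control library 4. That was its only overlapping control library, so leaving it out fixes the separation and the Bnip3 call counts as no test. With the replicate number as a block, 21 genes were called higher, 193 lower, and 0 pathway genes lower, Ccn2 having adjusted p = 0.0656. The numbers are not known to pair libraries, since same-numbered libraries had deviations correlated at -0.251 to 0.263 and 2 of 10 correlated best with their own number. Near 0, signs turned. Foxo1 had a log2 fold change of 0.0012 with DESeq2 and with RLE factors, 0.011 with voom, 0.0023 with the block, 0.0097 with the length trend removed and 0.045 without the 2 libraries. Pik3r1 had 0.00053 with voom and 0.038 without the 2 libraries, and Tbc1d4 had -0.022 on the adipocyte marker scale, which moved the median of all genes by -0.0596.

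With each library left out in turn, 19 to 119 genes were called higher and 164 to 323 lower, and 1 to 4 pathway genes higher and 0 to 2 lower; 119 and 323 were without control library 4, 19 without control library 5 and 164 without KO library 2. Log2 fold changes ran from -0.022 to 0.139 for Insr, -0.074 to 0.023 for Pik3r1, -0.065 to 0.033 for Foxo1, 0.13 to 0.35 for Grb14, 0.07 to 0.18 for Irs2 and -0.0094 to 0.097 for Tbc1d4. They ran from -0.21 to -0.10 for Irs1, -0.089 to -0.030 for Akt1, 0.057 to 0.093 for Akt2 and 0.085 to 0.136 for Slc2a4. The log2 difference ran from -0.33 to 0.097 for Slc2a4 to Slc2a1 and from -0.036 to 0.089 for Tbc1d4 to Tbc1d1. The causes were not tested. Counting error is largest for Grb14 among the 10 members, at 114 to 228 counts per library, and voom gave it a log2 fold change of 0.32 (adjusted p = 0.270).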

Other observations

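Bnip3, a mitophagy gene that responds to low oxygen, had 1309 CPM in control library 4 and 1363 CPM in KO library 1, the same libraries in which Slc2a1 was highest. In the other control libraries it had 760.3 to 891 CPM and in the other KO libraries 998 to 1149 CPM. Over all libraries its log2 fold change was 0.26 and did not pass (adjusted p = 0.496, edgeR). Without those 2 libraries its groups did not overlap, a gene and a choice made after the values were seen. Leaving out the only overlapping control library fixes this separation, so it is given with no test.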
